A study of Mus musculus with 6 samples.

Results

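The contractile genes of smooth muscle and the marker genes of pericytes were followed in cultured cardiomyocytes (CMs) of newborn mice given α-ketoglutarate (αKG). The group held 10 genes, *Myh11*, *Myl9*, *Mylk*, *Tagln*, *Cnn1*, *Lmod1*, *Rgs5*, *Pdgfrb*, *Cspg4* and *Notch3*, taken by symbol from the 20066 genes of the table. Actins were left out of the group. All 10 symbols were found, each in 1 row. CMs of C57BL/6 mice of age P0-1 were cultured for 96 hours with cell-permeable αKG or with its solvent DMSO, and 3 libraries of total RNA were made from each group. The labels give an αKG concentration of 100 µM, and the study's methods a different one for the octyl ester of αKG. Both groups were of the same genotype and carried no transgene that the labels name. No step that removes other heart cells from the cultures was given in the sources used here, and the labels do not say whether replicates came from separate litters or cultures. Under microscopy, the study's methods describe each neonatal CM sample as 1 isolation from pooled hearts. For the RNA libraries this was not given in the sources used here, so p-values measure the spread between these libraries, of which some may be technical.

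Smooth muscle contracts when calcium and calmodulin activate myosin light chain kinase (*Mylk*), which phosphorylates the regulatory light chain (*Myl9*) bound to smooth muscle myosin heavy chain (*Myh11*). Calponin (*Cnn1*), transgelin (*Tagln*, also called SM22α) and leiomodin 1 (*Lmod1*) bind actin in the same cells. Pericytes are the contractile cells that wrap capillaries. They are recruited by PDGF-B from the endothelium through the receptor PDGFRβ (*Pdgfrb*), carry the proteoglycan NG2 (*Cspg4*) and the receptor *Notch3* on their surface, and express the G protein regulator *Rgs5*. Several of these genes are also made elsewhere. *Tagln*, *Cnn1*, *Myl9* and *Mylk* are used by myofibroblasts, and *Tagln* by the embryonic heart.

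Before the groups were compared, the libraries were. αKG replicate 3 stood apart from its group. Across genes its log2 values correlated at 0.962 and 0.963 with αKG replicates 1 and 2, and at 0.977 to 0.98 with the DMSO libraries. Its values are therefore pointed out for each gene, and results are given with and without it. The depth of the libraries, estimated from the spacing of low values, was 3726069 to 4427908 reads in genes, so that 1 read was worth 0.9259 to 1.1188 normalized counts.

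*Myl9*, *Cnn1* and *Cspg4* were higher in αKG, by 1.48-, 11.7- and 1.6-fold between group means, and 0 of the 10 genes were lower at the same threshold. The threshold was a limma adjusted p under 0.05 over all genes of the table, which 3.78% of all genes passed in either direction, 2.83% as higher and 0.952% as lower. At an unadjusted p under 0.05, 4 of the 10 were higher and 0 lower, against 15.7% of all genes higher and 28.1% in either direction. With limma-voom on estimated reads, *Myl9* passed (adjusted p = 0.0179), and *Cnn1* (0.102) and *Cspg4* (0.0546) did not. In bulk RNA, more cells of a type and more RNA per cell cannot be told apart, here and in all that follows. The libraries of the groups did not overlap, with αKG above DMSO, in 4 of the 10 genes, the above 3 and *Mylk*, against 13.7% of all genes. The log2 fold change was above 0 in 9 of 10, against 52.9% of all genes, and its median was 0.35, against 0.04 over all genes. *Myh11* and *Rgs5* had 13 or fewer normalized read counts in every library.

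**Figure D1:**
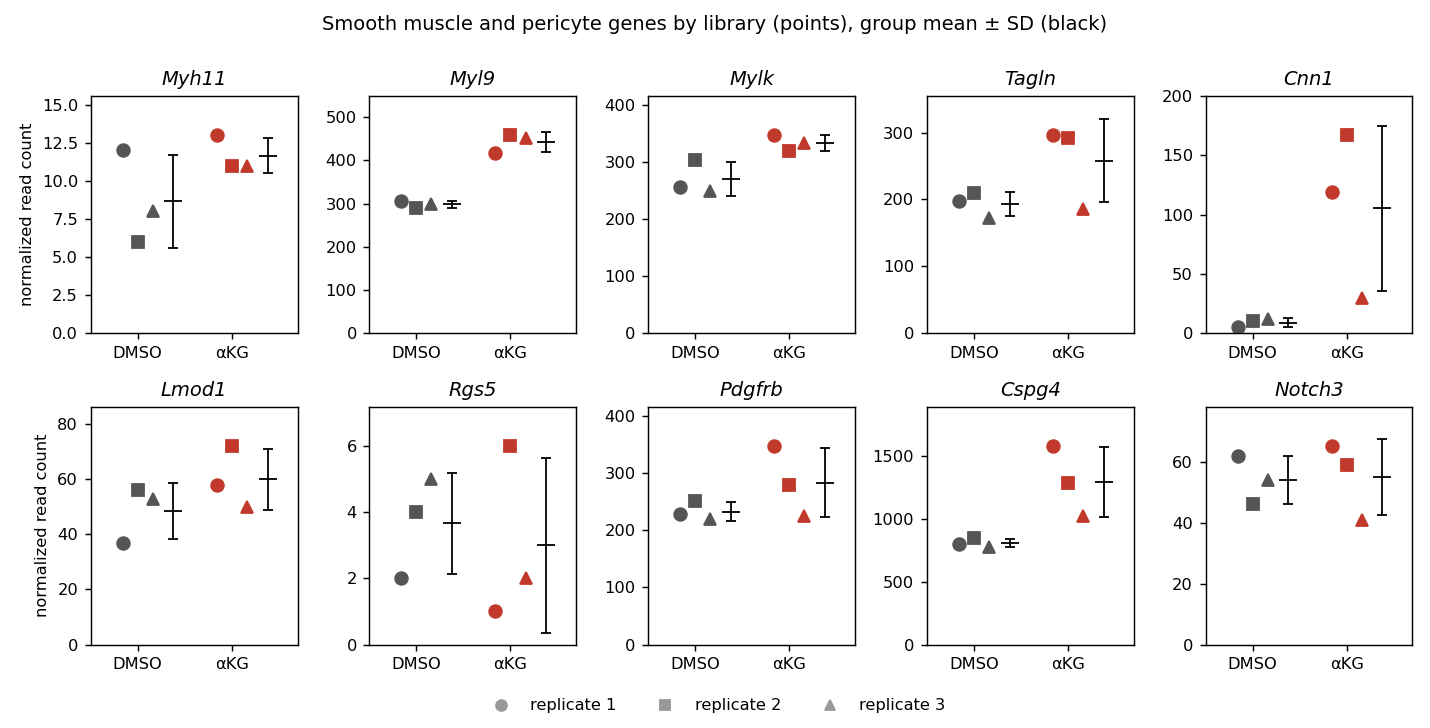
Normalized read counts of the 10 genes in each of the 6 libraries (linear axes from 0, 1 panel per gene), DMSO in grey and αKG in red, with the replicate given by the marker and the group mean ± SD (n = 3) as black bars. *Myl9*, *Mylk*, *Cnn1* and *Cspg4* separate the groups, and the αKG replicate 3 point lies among the DMSO points in *Tagln* and *Pdgfrb*.

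In the 10 genes αKG replicate 3 lay above the DMSO range in 4, within it in 5 and below it in 1 (*Notch3*), and αKG replicates 1 and 2 were both above the DMSO range in 7. These positions were not counted over all genes, so they are not read as a result about the 10 genes. Without αKG replicate 3, 5 of the 10 genes passed, *Tagln* and *Pdgfrb* being added, all higher. In that fit 37.2% of all genes passed, 19.3% as higher, and the median log2 fold change was 0.45 in the 10 genes and 0.06 over all genes. Each of the 3 calls was lost when any 1 of the other 5 libraries was left out, in fits that called at most 152 genes, with adjusted p from 0.0545 to 0.255 for *Myl9*, 0.129 to 0.255 for *Cnn1* and 0.155 to 0.264 for *Cspg4*. None of the 3 changed sign in these fits.

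The bases upstream of *Myl9*, *Cnn1* and *Cspg4* are shown because these are the genes that passed. They end at the base before the start of each gene and come from RefSeq's promoter windows, which reach from 250 bases before to 50 bases after a start. Windows of 7 of the 10 genes were used. Capitals in *Myl9* mark a CArG box, the motif bound by serum response factor (SRF), searched on both strands.
*Myl9*, GRCm38.p6 chr2:156775214-156775419, plus strand: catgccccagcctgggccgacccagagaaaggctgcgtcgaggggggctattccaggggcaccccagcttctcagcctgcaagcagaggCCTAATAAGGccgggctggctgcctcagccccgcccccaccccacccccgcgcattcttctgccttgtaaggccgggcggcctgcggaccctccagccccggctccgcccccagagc
*Cnn1*, GRCm38.p6 chr9:22099003-22099215, plus strand: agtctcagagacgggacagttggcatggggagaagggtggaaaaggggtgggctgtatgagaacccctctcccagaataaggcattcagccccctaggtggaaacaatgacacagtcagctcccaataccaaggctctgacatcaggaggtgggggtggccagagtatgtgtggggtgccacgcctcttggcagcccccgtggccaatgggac
*Cspg4*, GRCm38.p6 chr9:56864854-56865032, plus strand: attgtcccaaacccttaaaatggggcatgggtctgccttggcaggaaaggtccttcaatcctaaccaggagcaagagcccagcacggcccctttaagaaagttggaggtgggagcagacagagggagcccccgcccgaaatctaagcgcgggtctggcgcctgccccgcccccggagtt
The CArG box of *Myl9* lay at positions -161 to -152 from the RefSeq start. It was the 1 such motif in the windows of the 7 genes, and 1.63% of 32851 RefSeq windows held it. The core motif of TEAD factors, CATTCC on either strand, occurred in *Mylk* (-158 to -153) and *Lmod1* (-130 to -125), and in 14.7% of all windows. The RefSeq start used for *Mylk* lies inside the gene, so that motif is not upstream of the first base of *Mylk*. The core of the Notch partner RBPJ, TGGGAA on either strand, was in 0 of the 7 windows and in 25.6% of all windows. A match of letters describes the sequence and is not evidence of binding. *Myh11*, *Tagln* and *Pdgfrb* were not searched.

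The myosin motor and its switch were read first. *Myh11* (ENSMUSG00000018830, GRCm38 chromosome 16, 14194535 to 14291372, minus strand) had normalized read counts of 12, 6 and 8 in DMSO (replicates 1, 2 and 3, an order kept from here on) and 13, 11 and 11 in αKG. The groups overlapped, since DMSO replicate 1 lay among the αKG libraries. The means were 8.67 ± 3.06 and 11.7 ± 1.15 (SD, n = 3 each), and the log2 fold change was 0.43 with a 95% interval of -0.38 to 1.24 (limma adjusted p = 0.453).

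*Myl9* (ENSMUSG00000067818, chromosome 2, 156775420 to 156781658, plus strand) had 306, 289 and 300 in DMSO and 417, 458 and 452 in αKG. All 3 αKG libraries lay above all DMSO libraries, and αKG replicate 3 was as high as the others. The mean rose from 298.0 ± 8.62 to 442.0 ± 22.1 (SD, n = 3 each), which on the log2 scale is 0.57 ± 0.08 (SE, limma adjusted p = 0.0133), and it was 0.55 without αKG replicate 3.

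*Mylk* (ENSMUSG00000022836, chromosome 16, 34745210 to 35002420, plus strand), which codes for the kinase and shares 6.9% of its exon bases with genes on the other strand, had 256, 304 and 249 in DMSO and 347, 320 and 333 in αKG. The groups did not overlap, but DMSO replicate 2 came near to αKG replicate 2. The difference was 0.31 ± 0.10 on the log2 scale (95% interval 0.08 to 0.54) and did not pass (limma adjusted p = 0.0963). It was 0.31 without αKG replicate 3 (limma adjusted p = 0.0514).

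Among the actin-binding genes, *Cnn1* (ENSMUSG00000001349, chromosome 9, 22099216 to 22109630, plus strand) had 5, 10 and 12 in DMSO and 119, 167 and 30 in αKG. Every αKG library was above every DMSO library, yet αKG replicate 3 was far below its group. It stood 3.33-fold above the DMSO mean, and the mean of αKG replicates 1 and 2 stood 15.9-fold above it. The log2 fold change was 3.17 ± 0.57 (SE, 95% interval 1.89 to 4.45, limma adjusted p = 0.0279), and 3.9 without αKG replicate 3. With as few as 5 counts in a library, the fold rests on a low DMSO level, and log2(value + 1) understates changes of low genes.

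*Tagln* (ENSMUSG00000032085, chromosome 9, 45929619 to 45936058, minus strand) had 197, 209 and 173 in DMSO and 296, 292 and 186 in αKG. αKG replicates 1 and 2 were above the DMSO range and αKG replicate 3 was inside it. The log2 fold change was 0.39 ± 0.18 (95% interval -0.00 to 0.78, limma adjusted p = 0.18). Without αKG replicate 3 it was 0.61 and passed (limma adjusted p = 0.0044). Of its exon bases, 67.9% lie on the other strand of exons of *Pcsk7* and *Gm48529*, and no source says that reads were counted by strand, which leaves its values uncertain. *Pcsk7* had 308, 330 and 332 in DMSO and 268, 242 and 296 in αKG, and *Gm48529* 10 to 17 throughout.

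*Lmod1* (ENSMUSG00000048096, chromosome 1, 135324807 to 135368065, plus strand), which nucleates actin filaments, had 37, 56 and 53 in DMSO and 58, 72 and 50 in αKG. The groups overlapped. The log2 fold change was 0.30 with a 95% interval of -0.2 to 0.8 (limma adjusted p = 0.393).

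Among the pericyte genes, *Cspg4* (ENSMUSG00000032911, chromosome 9, 56865033 to 56899870, plus strand) had 801, 846 and 777 in DMSO and 1576, 1282 and 1021 in αKG. All αKG libraries were above all DMSO libraries, with replicate 3 the nearest to them. The mean rose from 808.0 ± 35.0 to 1293 ± 278.0 (SD, n = 3 each), which on the log2 scale is 0.66 ± 0.13 (SE, limma adjusted p = 0.0362), and 0.82 without αKG replicate 3. It was 1.77-fold above the DMSO mean in αKG replicates 1 and 2 and 1.26-fold in αKG replicate 3.

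*Pdgfrb* (ENSMUSG00000024620, chromosome 18, 61045150 to 61085061, plus strand) had 228, 251 and 220 in DMSO and 347, 279 and 225 in αKG. αKG replicate 3 was within the DMSO range and the other 2 αKG libraries above it. The log2 fold change was 0.26 ± 0.15 (95% interval -0.07 to 0.59, limma adjusted p = 0.27), and 0.42 without αKG replicate 3, where it passed (limma adjusted p = 0.0267).

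*Notch3* (ENSMUSG00000038146, chromosome 17, 32120820 to 32166852, minus strand; 6.0% of exon bases shared with *Gm17276* on the other strand) had 62, 46 and 54 in DMSO and 65, 59 and 41 in αKG. The groups overlapped and αKG replicate 3 was the lowest library. The log2 fold change of 0.01 had a 95% interval of -0.49 to 0.51 (limma adjusted p = 0.987). *Rgs5* (ENSMUSG00000026678, chromosome 1, 169655501 to 169695813, plus strand) had 2, 4 and 5 in DMSO and 1, 6 and 2 in αKG. Its log2 fold change of -0.37 rests on 6 counts or fewer in each library and had a 95% interval of -1.63 to 0.9 (limma adjusted p = 0.695), so no difference in *Rgs5* was detectable at this depth.

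**Figure D2:**
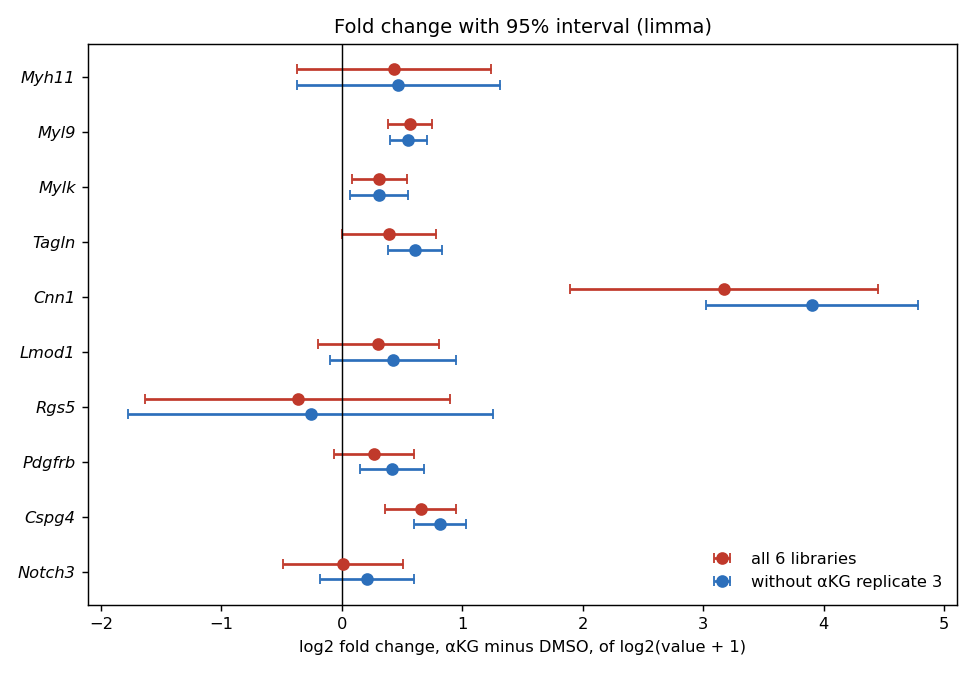
Log2 fold change of αKG over DMSO with its 95% limma interval for the 10 genes, with all 6 libraries and without αKG replicate 3. With all libraries the estimate for *Cnn1* is 3.17, and those of the other genes lie between -0.37 and 0.66.

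The level of each gene was next compared per kb of exon, the scale on which genes of different length can be set side by side. In DMSO the order was *Myl9* (257.0 normalized counts per kb), *Tagln* (97.1), *Cspg4* (67.7), *Pdgfrb* (42.5), *Mylk* (23.9), *Lmod1* (12.3), *Notch3* (6.68), *Cnn1* (3.29), *Myh11* (1.14) and *Rgs5* (0.807), where the median protein-coding gene was at 32.4. The DMSO ranges of neighbours in this order were apart except those of *Myh11* and *Rgs5*. *Myl9* thus stood at percentile 98.1 of 14250 protein-coding genes, and *Myh11*, whose product the *Myl9* light chain binds, at percentile 11.8. In αKG *Cnn1* moved to 38.5 per kb, percentile 55.4, from percentile 18.8. Its αKG range overlapped with those of *Pdgfrb*, *Mylk* and *Lmod1*, αKG replicate 3 being at its low end, and the ranges of *Tagln* and *Cspg4* overlapped too. Exon length was the union of all exons, and a gene with long rare exons appears lower on this scale.

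**Figure D3:**
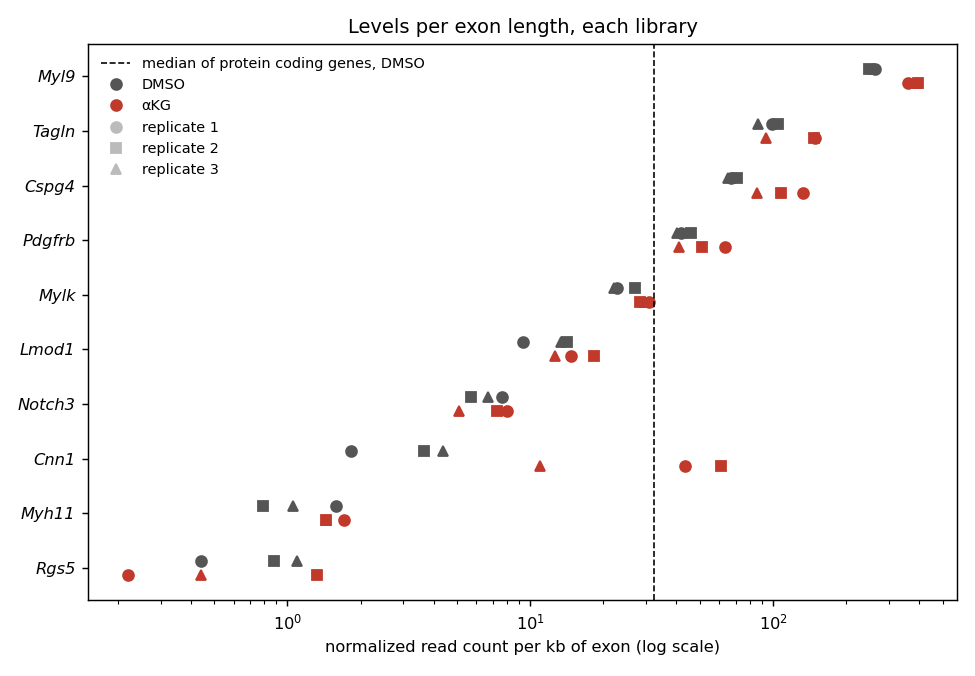
Normalized read count per kb of exon (log scale) of the 10 genes in each library, DMSO in grey and αKG in red, with the replicate given by the marker. *Cnn1* crosses from among the lowest genes in DMSO to above the dashed median of protein-coding genes in DMSO, 32.4, in αKG replicates 1 and 2.

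Paralogs used outside smooth muscle were set beside the group. Of 14, 1 rose and 1 fell, with a median log2 fold change of 0.08. Without αKG replicate 3, 6 passed as higher and 1 as lower, with a median of 0.21. *Myh10*, a nonmuscle myosin heavy chain, had 1571, 1530 and 1511 in DMSO and 2061, 2119 and 1861 in αKG. It rose in every αKG library, by 0.39 ± 0.06 on the log2 scale (SE, limma adjusted p = 0.0209). *Myh9*, another nonmuscle myosin heavy chain, had 1790, 1855 and 1832 in DMSO and 2557, 2366 and 1654 in αKG (0.24, limma adjusted p = 0.267, and 0.43, limma adjusted p = 0.00122, without αKG replicate 3). *Myh14* was at 240 to 289 in DMSO and 232 to 437 in αKG. *Myl12a*, the nonmuscle counterpart of *Myl9*, had 210, 223 and 230 in DMSO and 288, 296 and 277 in αKG, apart but just outside the threshold (log2 fold change 0.38, limma adjusted p = 0.0515). *Rgs16*, which like *Rgs5* speeds the shutdown of G protein signals, had 42, 48 and 46 in DMSO and 19, 21 and 21 in αKG and fell by 1.12 on the log2 scale (limma adjusted p = 0.0337). *Cnn3* (302, 331 and 311 in DMSO, 321, 357 and 321 in αKG) and *Cnn2* (267, 276 and 286 in DMSO, 339, 357 and 273 in αKG) did not pass, with log2 fold changes of 0.08 and 0.22 beside the 3.17 of *Cnn1*. Without αKG replicate 3 *Cnn2* passed (0.33, limma adjusted p = 0.00829). These 3 differences were not tested against each other. *Lmod2*, the leiomodin of striated muscle, was at 989 to 1064 in DMSO and 1059 to 1156 in αKG, *Lmod3* at 660 to 736 and 561 to 676, and *Tagln2* at 203 to 226 and 180 to 287. The calls of *Myh10* and *Rgs16* were each lost without any 1 of the libraries other than αKG replicate 3 (adjusted p 0.0807 to 0.255 and 0.105 to 0.255).

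Of 15 other smooth muscle genes, 0 passed by limma or by limma-voom in either direction (5 at an unadjusted p under 0.05, all higher, and 4 without αKG replicate 3, all higher), and the median log2 fold change was 0.19. *Acta2*, smooth muscle α-actin, had 970, 1020 and 1007 in DMSO and 1019, 1020 and 1131 in αKG, so the groups overlapped (log2 fold change 0.08, 95% interval -0.07 to 0.23, limma adjusted p = 0.453). *Actg2*, the enteric smooth muscle actin, was at 5 to 9 in DMSO and 7 to 13 in αKG. *Cald1*, caldesmon, which binds actin and myosin, had 1126, 1260 and 1269 in DMSO and 1849, 1925 and 1196 in αKG (difference of 0.41 on the log2 scale, limma adjusted p = 0.127), αKG replicate 3 being within the DMSO range. *Tpm2*, a tropomyosin, showed the same split by library, with 98, 120 and 124 in DMSO and 246, 258 and 108 in αKG (0.74, limma adjusted p = 0.136). In 3 of the 15 genes every αKG library was above every DMSO library, against 13.7% of all genes. They were *Csrp1* (335 to 341 in DMSO and 386 to 418 in αKG), *Tgfb1i1* (213 to 226 and 266 to 302) and *Filip1l* (605 to 631 and 668 to 817). *Cald1*, *Tpm2*, *Csrp1* and *Tgfb1i1* were the 4 genes that passed without αKG replicate 3.

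Of 9 regulators of smooth muscle genes, 0 passed by limma or limma-voom, with a median log2 fold change of -0.09. At an unadjusted p under 0.05, 1 was higher and 2 were lower. Without αKG replicate 3, 1 passed as higher and 4 as lower. *Myocd*, the SRF coactivator that drives smooth muscle genes and is also made in CMs, had 1401, 1563 and 1465 in DMSO and 1486, 1354 and 1721 in αKG, with overlap. *Srf* had 421, 473 and 474 in DMSO and 301, 294 and 470 in αKG (-0.39 on the log2 scale, limma adjusted p = 0.154). *Gata6* had 859, 862 and 881 in DMSO and 530, 565 and 824 in αKG (-0.47, limma adjusted p = 0.0843), lower in all 3. Every αKG library was below every DMSO library in 2 of the 9 regulators and above in 1, against 14.6% and 13.7% of all genes. *Klf4*, which represses contractile genes, had 180, 175 and 171 in DMSO and 253, 253 and 181 in αKG (0.37, limma adjusted p = 0.13). *Fhl2*, a cofactor of SRF, was at 1008 to 1047 in DMSO and 931 to 992 in αKG. In the machinery that sets myosin light chain phosphorylation, 0 of 14 genes passed by limma or limma-voom (1 higher and 3 lower at an unadjusted p under 0.05), and the median was -0.02. Without αKG replicate 3, 2 passed as higher and 3 as lower. *Ppp1r12b* and *Rock2*, a targeting subunit of myosin phosphatase and a kinase that inhibits it, differed by -0.03 and 0.15 on the log2 scale. Of the kinases related to *Mylk*, *Mylk3* of CMs had 1978, 2087 and 2109 in DMSO and 1653, 1714 and 1854 in αKG, and *Mylk4* 462, 462 and 395 in DMSO and 1010, 953 and 461 in αKG.

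Of 14 other pericyte genes that were measured, 1 passed, as higher, and the median log2 fold change was 0.26. At an unadjusted p under 0.05, 4 were higher and 3 lower. Every αKG library was above every DMSO library in 2 and below in 3, against 13.7% and 14.6% of all genes. *Mcam* was 1 of those above, with 345, 322 and 321 in DMSO and 403, 374 and 453 in αKG (0.31, limma adjusted p = 0.0834). Without αKG replicate 3, 6 passed as higher and 2 as lower. *Gucy1b1*, a subunit of the nitric oxide receptor, had 138, 113 and 117 in DMSO and 217, 211 and 202 in αKG. It rose in all 3 αKG libraries, by 0.78 ± 0.12 on the log2 scale (SE, limma adjusted p = 0.0159), and by 0.8 without αKG replicate 3. The call was lost without any 1 of DMSO replicates 2 and 3 and αKG replicates 1 and 2 (adjusted p 0.198 to 0.255). *Ednra*, an endothelin receptor, had 472, 486 and 480 in DMSO and 261, 275 and 420 in αKG, below DMSO in every αKG library (-0.62, limma adjusted p = 0.0583). *Abcc9* (2020 to 2114 in DMSO and 1495 to 2060 in αKG), the regulatory subunit of KATP channels, is also used by CMs. *Kcnj8*, its pore partner in pericytes, had 4 counts or fewer in every library. The list held 17 genes, and *Vtn*, *Higd1b* and *P2ry14* were not among the genes with values, so they could not be tested.

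The ligands and partners of PDGFRβ and Notch3 were read next. Of 5 PDGF ligands and receptors other than *Pdgfrb*, 0 passed by limma or limma-voom (3 lower and 0 higher at an unadjusted p under 0.05), with a median log2 fold change of -0.21, and without αKG replicate 3, 1 passed as higher and 2 as lower. *Pdgfb*, a ligand of PDGFRβ, had 73, 70 and 66 in DMSO and 28, 19 and 60 in αKG, below DMSO in every αKG library (-1.1, limma adjusted p = 0.0909, and -1.55, limma adjusted p = 0.00232, without αKG replicate 3). Every αKG library was below every DMSO library in 2 of the 5 genes and above in 0, against 14.6% and 13.7% of all genes. *Pdgfa* was at 361 to 423 in DMSO and 324 to 367 in αKG. *Pdgfra* had 238, 297 and 248 in DMSO and 410, 412 and 196 in αKG, overlapping. Of 16 Notch pathway genes, 0 passed by limma or limma-voom (4 lower and 0 higher at an unadjusted p under 0.05), with a median of -0.13, and without αKG replicate 3, 1 passed as higher and 3 as lower. *Hey2*, a target of Notch, had 399, 340 and 332 in DMSO and 164, 136 and 338 in αKG (-0.86, limma adjusted p = 0.0928). *Heyl*, another target, had 57, 50 and 38 in DMSO and 25, 23 and 39 in αKG (-0.74, limma adjusted p = 0.118), and *Notch2* 579 to 616 and 602 to 755. The targets *Hes1*, *Hey1* and *Nrarp* differed by -0.15, -0.23 and 0.26, with overlap (limma adjusted p = 0.342, 0.743 and 0.675).

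Among lists of heart cell markers, only the endothelial list held genes that passed by limma with all 6 libraries. The part of these cell types in the results above was not tested. CM markers summed to 77701 to 80374 in DMSO and 82317 to 113899 in αKG, so CM RNA was abundant in every library. *Ttn*, the giant sarcomere protein titin, made up most of that sum, with 51569 to 54216 in DMSO and 55569 to 84136 in αKG. Over the CM list the median was 0.07 on the log2 scale, with 0 called by limma or limma-voom, 3 higher and 2 lower at an unadjusted p under 0.05, and 5 higher and 2 lower without αKG replicate 3. Fibroblast markers (10 of 10 measured) summed to 2993 to 3134 in DMSO and 6705, 6470 and 3020 in αKG, with 0 called by limma or limma-voom, 6 higher at an unadjusted p under 0.05 and 8 higher without αKG replicate 3. *Col1a1* and *Col1a2* made up most of that sum. The median difference of the fibroblast list from the DMSO mean was 0.88, 0.83 and 0.02 in αKG replicates 1 to 3. Epicardial markers (10 of 10 measured) summed to 514 to 542 in DMSO and 1335, 1273 and 491 in αKG, with 0 called by limma or limma-voom, 3 higher at an unadjusted p under 0.05 and 10 higher without αKG replicate 3. *Tbx18* made up most of that sum in DMSO, with 306 to 332, and had 408, 405 and 351 in αKG. The median difference of the epicardial list was 2.16, 1.95 and -0.54 in αKG replicates 1 to 3. Both sums were thus raised in αKG replicates 1 and 2 and not in αKG replicate 3, as were *Tagln*, *Pdgfrb*, *Cald1* and *Tpm2*. *Myl9*, *Mylk*, *Cnn1*, *Cspg4* and *Gucy1b1* were above the DMSO range in all 3. Of these, *Cnn1*, *Cspg4* and *Gucy1b1* were lowest in αKG replicate 3, *Gucy1b1* at 202 beside 217 and 211. Every αKG library was also above the DMSO range in 4 of the 10 fibroblast markers and 2 of the 10 epicardial markers, against 13.7% of all genes. Endothelial markers, with 7 of 10 called lower and 0 higher, summed to 2018 to 2153 in DMSO and 1400 to 1518 in αKG. With limma-voom 4 were called lower, and without αKG replicate 3, 7 were lower and 2, *Tek* and *Flt1*, higher. Macrophage markers (5 of 10 measured) summed to 23 to 41 and Schwann cell markers (4 of 5 measured) to 39 to 71 in the 6 libraries. *Myh11* and *Rgs5*, the lowest of the 10 genes per kb of exon in both groups, were at 6 to 13 and 1 to 6 in the same libraries. Other genes of the group were higher, *Tagln* at 173 to 296, *Pdgfrb* at 220 to 347 and *Cspg4* at 777 to 1576. These are values of single genes, whereas those of the lists are sums. The 10 genes of the group summed to 1906, 2021 and 1851 in DMSO and 3239, 2946 and 2351 in αKG. Relative to the DMSO mean, the median difference was 0.48, 0.36 and 0.36 on the log2 scale for the 3 myosin genes in αKG replicates 1 to 3, 0.62, 0.60 and 0.06 for the 3 actin-binding genes and 0.42, 0.45 and -0.21 for the 4 pericyte genes. In αKG replicates 2 and 3 the myosin median is the value of *Myh11*, which had 11 counts in each. *Myl9* had 0.48, 0.62 and 0.60 in αKG replicates 1 to 3, and *Mylk* 0.37, 0.25 and 0.31.

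**Figure D4:**
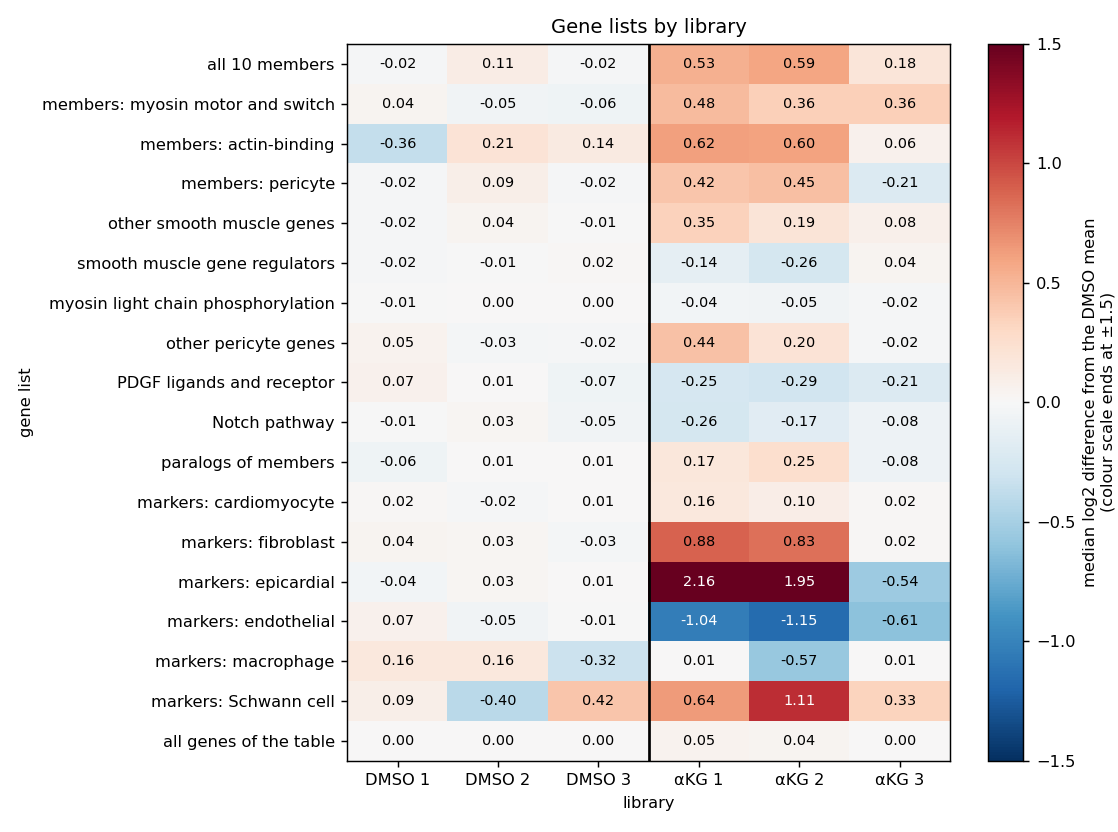
Median difference of each gene list from the DMSO mean (log2, colour, value printed in each cell) in each library. Epicardial markers reach 2.16, 1.95 and -0.54 in αKG replicates 1 to 3, and the 10 smooth muscle and pericyte genes 0.53, 0.59 and 0.18.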

How the data were processed

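RNA of 6 libraries was read from a table of all genes. Per the submitters' processing notes, the authors used Trimmomatic 0.39, STAR 2.7.10a, featureCounts 2.0.3 and DESeq2 1.30.1 on mm10 (GRCm38.p5). The deposited values are treated as a score, since the authors had divided read counts by size factors and rounded them to whole numbers, and edgeR was not used. Estimated depth was 3726069 to 4427908 reads per library. It was read from the spacing of low values.

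All 20066 genes and 6 libraries entered 1 model with treatment as its term, by limma 3.58.1 (R 4.3.3, variance trend) on log2(value + 1) with no filter. This understates changes of low genes. Adjusted p-values are Benjamini-Hochberg values over all genes. The steps were tested on simulated data. Exon lengths and overlaps came from GENCODE M21, in which 19856 genes had the deposited positions. Python 3.11.15 was used for tables and plots.

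The 10 genes and all lists were chosen with earlier results of these data known, so no list was tested as a set. Named genes are the members, their paralogs, *Acta2*, *Actg2*, *Myocd*, and per list the 2 with the highest mean and up to 3 called. *Tpm2*, *Csrp1*, *Tgfb1i1*, *Filip1l*, *Srf*, *Gata6*, *Klf4*, *Pdgfb*, *Heyl*, *Kcnj8*, *Mylk3* and *Mylk4* were named after their values were seen. The same holds for *Mcam*, *Hes1*, *Hey1*, *Nrarp*, *Tbx18*, *Col1a1* and *Col1a2*. Alternatives were the pseudocount, a filter, scaling, the variance trend, voom, a replicate block and each library left out.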

Additional observations from a re-analysis of the deposited data

How the results depend on the processing

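The direction of *Myl9* (log2 fold change 0.54 to 0.61), *Cnn1* (2.68 to 3.9) and *Cspg4* (0.50 to 0.82) stayed the same in the 15 alternatives run, and their calls were lost in 8, 9 and 10 of them. The count of the 10 genes past the threshold was 3. It was 0 without the variance trend, 1 with voom on estimated reads, 0 with DMSO replicates 2 and 3 averaged (a fit with fewer samples), and 4 without adjustment. Over the fits that each left out 1 library it ranged from 0 to 5. The median of the 10 genes lay between 0.30 and 0.45. Over all genes, 759 passed. That count was 346 with a pseudocount of 0.1, 27 without the trend, 362 with voom, 19 with the averaged libraries, 5648 without adjustment, and 0 to 7466 without 1 library (152, 3 and 4 without DMSO replicates 1 to 3, 0 without αKG replicate 1 or 2, where 3324 and 3244 genes had an unadjusted p under 0.05, and 7466 without αKG replicate 3). The cause of the other changes was not tested.

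With the shared number as a replicate block, 46 genes and 0 of the 10 passed. Same-numbered DMSO and αKG libraries deviated from their groups with correlations of -0.074, 0.136 and 0.002, too low to call them paired. DMSO replicates 2 and 3 differed little beyond sampling noise (chi-square of 1.02 per gene over 13077 genes, against 1.43 and 1.93 for the other DMSO pairs), but 4 genes did, and both were kept.

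*Notch3* had -0.01 with equal totals, -0.13 with quantile normalization, -0.04 with the averaged libraries, and -0.12 to 0.20 without 1 library. *Rgs5* had -0.87 to 0.03 and *Myocd* -0.06 to 0.12 without 1 library, and *Myocd* -0.02 with quantile normalization. None of these 3 genes had a call. Among 717 values of 48 genes in these fits, a call was lost in 50 and gained in 32. Count models (edgeR and DESeq2) were not run, since the values are not counts. With the longest transcript in place of the union of exons, *Cspg4* was at 99.5 per kb in DMSO, *Tagln* at 121.0 and *Mylk* at 34.5. Depth limits *Myh11*, *Rgs5*, *Actg2* and *Kcnj8*, each at 13 counts or fewer, and a filter on a mean of 10 leaves *Rgs5*, *Actg2* and *Kcnj8* untested.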
